A study of Mus musculus with 2 samples.

Results

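The 10 genes described here encode mTOR, its partners in mTOR complex 1 (mTORC1) and complex 2 (mTORC2), and the proteins that switch mTORC1 on or off or act directly below it. They are Mtor, Rptor, Rictor, Mlst8, Rheb, Tsc1, Tsc2, Akt1s1, Rps6kb1 and Lamtor1, taken by symbol from the 32285 genes of the count tables. All 10 were listed in both tables, and each had at least 1 molecule counted in each library. The study sorted microglia from the lumbar spinal cord of male mice aged 8 to 10 weeks, using the gate CD45lo, CD11b hi and CX3CR1 hi, and sequenced single cells from the 3′ end of their RNA. There was 1 library of WT mice, called control here, and 1 library of 4E-BP1–cKO mice, called cKO here, which carry floxed Eif4ebp1 alleles and a tamoxifen-inducible Cre driven by the Tmem119 promoter (Eif4ebp1 fl/fl:TMEM119CreERT2). Mice received 4-hydroxytamoxifen from P4 to P9, and whereas the labels call the control library WT, the study's legend for this experiment gives the control genotype as Eif4ebp1 fl/fl. How many mice were pooled for each library is not stated in the sources used here. A cell was kept if it had more than 300 genes detected and less than 5% of its UMIs on mitochondrial genes, where a UMI (unique molecular identifier) marks 1 captured RNA molecule. This left 1147 of 1216 control cells and 445 of 474 cKO cells.

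mTORC1 is a protein kinase complex that promotes protein synthesis and growth when growth factors and amino acids are present. Amino acids act through the Rag GTPases, which are held on the lysosome by the Ragulator complex and recruit mTORC1 there, and growth factors act through PI3K and AKT, which restrain the TSC complex so that the small GTPase RHEB can activate the kinase. Active mTORC1 phosphorylates 4E-BP1, the protein deleted in the cKO mice, and the S6 kinases. These steps are set by phosphorylation and location of proteins, and the values below are levels of RNA only.

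In total 4803562 UMIs were counted in the kept control cells and 1734332 in the kept cKO cells, at medians of 3053 and 2776 per cell. No barcode was shared by the libraries. All 9 markers of microglia were counted in both libraries, and at least 3 of them were present in 1094 control and 408 cKO cells. No list of another cell type reached 3 markers in more than 4 cells of a library. Levels are given in CPM, the UMIs of a gene per 1000000 UMIs of the summed cells. Eif4ebp1, the targeted gene, had 19.8 CPM in the control library (95 UMIs) and 29.4 CPM in the cKO library (51 UMIs). Reads from the 3′ end can lie outside the deleted part of a floxed gene, so this level does not check the deletion. With 1 library per genotype there is no test between genotypes. Intervals are 95% and cover counting error only.

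Among the core subunits of the complexes, Rptor had the highest CPM and Mlst8 the lowest. Mtor, the kinase shared by mTORC1 and mTORC2, had 29.6 CPM in the control library (142 UMIs) and 28.8 CPM in the cKO library (50 UMIs). Rptor encodes Raptor, the substrate-binding scaffold of mTORC1, and had 257 CPM (1235 UMIs) and 219 CPM (379 UMIs). Rictor, which defines mTORC2 and is not part of mTORC1, had 81.8 CPM (393 UMIs) and 75 CPM (130 UMIs). Mlst8, a subunit of both complexes, had 3.54 CPM in the control library (17 UMIs) and 1.73 CPM in the cKO library (3 UMIs). The subunit that inhibits mTORC1, PRAS40, is encoded by Akt1s1, which had 13.3 CPM (64 UMIs) and 12.1 CPM (21 UMIs).

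The activator Rheb and the lysosomal anchor Lamtor1 were each near 100 CPM, and Tsc2 was among the members with the fewest counts. Rheb had 95.3 CPM in the control library (458 UMIs) and 113 CPM in the cKO library (196 UMIs). Tsc1 and Tsc2 encode the subunits of the complex that turns RHEB off. Tsc1 had 53.7 CPM (258 UMIs) and 44.4 CPM (77 UMIs), and Tsc2 had 8.95 CPM (43 UMIs) and 13.3 CPM (23 UMIs). Lamtor1, the Ragulator subunit that anchors the Rag GTPases to the lysosomal membrane, had 83.9 CPM (403 UMIs) and 91.7 CPM (159 UMIs). Rps6kb1 encodes S6 kinase 1, a direct substrate of mTORC1, and had 83.5 CPM (401 UMIs) and 72.1 CPM (125 UMIs).

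The members differ widely in the length of the genome they span, from 5.57 kb for Mlst8 to 297 kb for Rptor. Rptor lies on chromosome 11 at 119602905 to 119899591 and Lamtor1 on chromosome 7 at 101905837 to 101911903 (mm10, gene bounds from RefSeq on GRCm38.p6). CPM divided by gene span was highest for Lamtor1, at 13.8 CPM per kb in the control library and 15.1 CPM per kb in the cKO library. Rheb followed at 2.41 and 2.86, Akt1s1 at 2.15 and 1.95 and Rps6kb1 at 1.81 and 1.57 CPM per kb. This quotient is not a level of RNA, since a UMI marks 1 molecule whatever the span of its gene. The CPM remain the measure of level here. Rptor had 0.867 and 0.737 CPM per kb, close to Rictor at 0.889 and 0.814 CPM per kb. Mtor had 0.271 and 0.264 CPM per kb, and Tsc2 had 0.243 and 0.36 CPM per kb. In the order of CPM, Rheb, Lamtor1, Rps6kb1 and Rictor had overlapping intervals in the control library, as did Tsc2 and Akt1s1. In GENCODE vM39, 9 of the 10 members overlap at least 1 other annotated gene, and 6 overlap 1 on the same strand, mostly a non-coding RNA. UMIs of overlapping genes on 1 strand cannot be fully told apart.

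**Figure D1:**
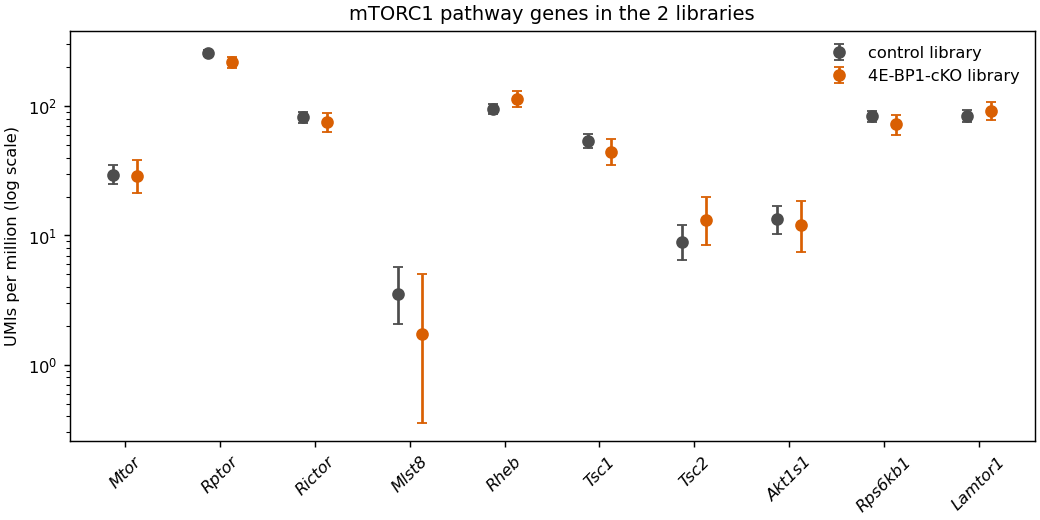
Level of each of the 10 genes in the control library (grey) and the cKO library (orange), in CPM on a log axis. Points are sums over the kept cells of 1 library and bars are exact 95% Poisson intervals, which overlap between the libraries for 9 of the 10 genes; for Rptor they run from 243 to 272 and from 197 to 242.

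None of the members with enough counts differed by more than 1.5-fold between the libraries. Of the 7 members with at least 100 UMIs in both libraries together, 0 passed this limit in either direction. Among all 7184 genes with as many UMIs, 2.1% were higher in the cKO library by more than 1.5-fold and 5.62% were lower. The median log2 ratio of cKO over control was -0.13 over these 7 members and -0.04 over all genes. Rptor was 0.850 times as high in the cKO library (interval 0.756 to 0.954). Rheb was 1.19 times as high (0.998 to 1.40), and the ratio was 0.975 for Mtor (0.692 to 1.35). The log2 ratio of Mtor was -0.04, but it was -0.70 when each cell was thinned to 1000 UMIs, 0.24 as a mean within classes of ribosomal share and -1.51 within classes of depth, so its direction changed with the setting. The thinned value is from 1 random draw of UMIs and rests on 33 control and 7 cKO UMIs. Over all draws to 1000 UMIs, the exact mean share of cells with Mtor was 2.77% in the control library and 2.87% in the cKO library. The mean within depth classes includes cells under 1000 UMIs, where Mtor had 6 control and 0 cKO UMIs. In the other depth classes the ratios were 1.22, 0.864 and 1.15. For Tsc1 the ratio was 0.827 (0.632 to 1.07), for Rps6kb1 0.863 (0.701 to 1.06), for Rictor 0.916 (0.746 to 1.12) and for Lamtor1 1.09 (0.904 to 1.32). The intervals of 6 of these 7 genes held 1. The members under the limit of 100 UMIs had ratios of 1.48 for Tsc2 (0.852 to 2.51), 0.909 for Akt1s1 (0.527 to 1.51) and 0.489 for Mlst8 (0.0918 to 1.69).

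The libraries differed in the share of each cell's UMIs that came from the 85 genes of ribosomal proteins, so the ratios are also given within classes of that share. The median share per cell was 2.22% in the control library and 3.53% in the cKO library, and cells under 2% made up 47.9% and 39.8% of the libraries. Among cells under 2%, Rptor had 367 CPM in the control library and 355 CPM in the cKO library, a ratio of 0.968 (0.801 to 1.16). Among cells at 2% or more, it had 209 and 176 CPM, a ratio of 0.842 (0.723 to 0.979). For Rheb the class under 2% gave the higher ratio. It had there 80.1 CPM in the control library and 138 CPM in the cKO library, a ratio of 1.72 (1.23 to 2.37), whereas in cells at 2% or more it had 102 and 105 CPM, a ratio of 1.03 (0.841 to 1.26). Of the 57 Rheb UMIs of cKO cells under 2%, 10 came from 1 cell. In cells at 10% or more Rheb was lower in the cKO library, with 107 and 59.9 CPM, a ratio of 0.562 (0.319 to 0.946). Rictor had there 23.9 and 63.1 CPM, a ratio of 2.64 (1.28 to 5.54). Lamtor1 had a ratio of 1.82 (1.26 to 2.61) in cells of 2 to 5% and of 0.502 (0.282 to 0.851) in cells of 10% or more. In cells with fewer than 3000 UMIs, Rps6kb1 had 98.7 CPM in the control library and 49.1 CPM in the cKO library, a ratio of 0.498 (0.283 to 0.829), whereas in deeper cells it had 79.6 and 78.2 CPM. These classes were compared without a test, since each rests on 1 library per genotype. The ratios given for Rheb, Rictor, Lamtor1 and Rps6kb1 were taken from those of all 10 members in every class, where most intervals held 1. At 10% or more, Rictor rests on 15 control and 20 cKO UMIs and Lamtor1 on 71 and 18. Rps6kb1 in cells with fewer than 3000 UMIs rests on 97 and 18.

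The other genes of the pathway gave the same count of 0 past 1.5-fold. This held for 3 genes with at least 100 UMIs among the other partners of the mTOR complexes and 19 of the Rag, Ragulator and GATOR group. It also held for 21 of the PI3K, AKT and AMPK inputs and 15 of a list of targets and downstream genes of the mTOR complexes. Their median log2 ratios were -0.15, 0.11, -0.12 and 0.18, in the same order. Among all 7184 genes with as many UMIs, 2.1% were higher and 5.62% lower by more than 1.5-fold. A count of 0 past the limit does not mean equal levels. Eif4ebp1, in the last list, was just under it, at a ratio of 1.49 (1.04 to 2.11). Intervals of some other genes also left out 1, in both directions, such as Irs2 at 0.729 (0.626 to 0.846) and the target Tfe3 at 1.38 (1.16 to 1.64).

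Most cells carried at least 1 UMI of the 10 genes, but usually of few of them. At least 1 member was detected in 81.4% of control cells (79.1 to 83.6%) and 76.2% of cKO cells (71.9 to 80.1%). The median number of members per cell was 2 in the control library and 1 in the cKO library, and the highest was 8 and 7. Rptor was detected in 54.1% of control and 43.1% of cKO cells, and no other member was detected in more than 27.2% of a library. Mtor itself was detected in 10.6% and 9.44% of cells. The astrocyte gene Aqp4, used as background in these sorted cells, was detected in 1.83% and 1.57%, and the neuronal gene Snap25 in 0.349% and 0.225%. The endothelial gene Cldn5 was detected in 0.436% of control cells and in 0 cKO cells. Mlst8 was detected in 1.48% and 0.674% of cells, from 17 and 3 UMIs. This was below Aqp4 and above Snap25 and Cldn5 in both libraries, so its detection lay within the range of these background genes.

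When each cell was thinned to 1000 UMIs, at least 1 member was found in 52.9% of 1039 control cells and 48.9% of 358 cKO cells, while 108 and 87 shallower cells were left out. These come from 1 random draw of UMIs. The exact mean over all draws was 50.7% and 47.7%, an alternative added after the data were seen. Rptor was detected in 24.5% and 19.8% of the thinned cells, Rheb in 8.28% and 10.9%, and Rps6kb1 in 8.28% and 6.15%. The intervals of the 2 libraries overlapped for each of these genes. In the thinned cells Tsc2 and Akt1s1 were close to the background gene Aqp4. Tsc2 was in 0.577% of control and 1.12% of cKO cells, Akt1s1 in 1.06% and 0.838%, and Aqp4 in 0.577% and 0.838%. With all UMIs both were above Aqp4, Tsc2 at 3.40% and 4.94% and Akt1s1 at 5.49% and 4.72%.

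**Figure D2:**
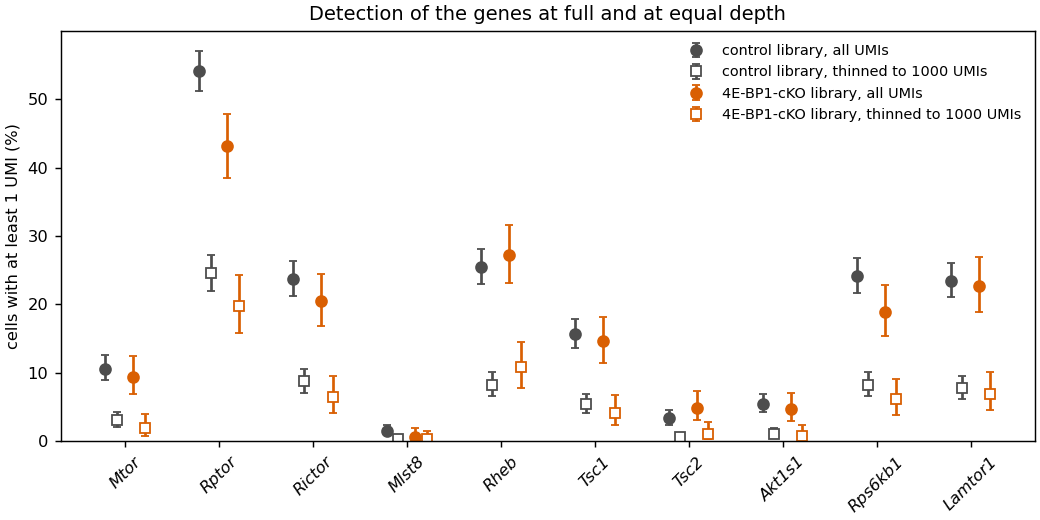
Percentage of cells with at least 1 UMI of each gene in the control (grey) and cKO (orange) libraries, with exact 95% binomial intervals. Filled circles use all UMIs and open squares use cells thinned to 1000 UMIs, where Rptor was at 24.5% in the control library, against 54.1% with all UMIs, and was the most often detected member in both.

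Rptor made up a larger part of the RNA in cells poor in ribosomal protein RNA, in both libraries. Its level was lower at each step across the 4 classes of ribosomal share. It was 367 CPM in control cells under 2%, 241 CPM at 2 to 5%, 196 CPM at 5 to 10% and 170 CPM at 10% or more. In the cKO library it was 355, 242, 164 and 114 CPM in the same order. With the classes joined into cells under 2% and cells at 2% or more, the ratio was 1.76 in the control library (1.57 to 1.97) and 2.02 in the cKO library (1.63 to 2.49). In edgeR's quasi-likelihood test on the 4 sums of library and class, with library as a term, the log2 difference was 0.78 (Benjamini-Hochberg adjusted p = 6.12e-07 over 9368 genes). The difference was also seen in detection at equal depth. In cells thinned to 1000 UMIs, Rptor was detected in 29.9% of control cells under 2% (26.0 to 34.0%) and 18.9% of the others (15.6 to 22.6%), and in 26.6% (19.5 to 34.8%) and 15.5% (11 to 21.0%) of cKO cells. The test rests on 2 libraries and 1 residual degree of freedom, so its error is largely the trend shared by all genes.

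Rptor was the only member of the 9 tested that passed. It also had the most UMIs of the members, at 1235 and 379 in the libraries. Akt1s1 differed by -0.70 from 64 and 21 UMIs and did not pass, so passing also goes with the count of a gene. Among all genes tested, 15.5% were higher and 20.3% lower in cells under 2%, and the median log2 difference was 0.36 over the 9 members and -0.01 over all genes. When libraries were scaled by total UMIs without TMM factors, 54.3% of all calls were higher in these cells, against 43.3% with the factors, the median of all genes shifted to 0.10, and Tsc1, Rps6kb1 and Rictor also passed. Of all 9368 genes, 3622 passed without the factors and 3351 with them.

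The kinase Mtor, the mTORC2 subunit Rictor, the inhibitor Tsc1 and the substrate Rps6kb1 each had higher levels in cells under 2% in both libraries without passing the test. Rps6kb1 had 106 CPM under 2% and 73.5 CPM at 2% or more in the control library, and 94.2 and 65.1 CPM in the cKO library (log2 difference 0.42, edgeR adjusted p = 0.078). Over the 4 classes it went from 106 to 94.9, 68.9 and 39.8 CPM in the control library and from 94.2 to 89.1, 63.5 and 37.8 CPM in the cKO library. The level was thus lowest at 10% or more in both libraries. Tsc1 had 67.2 and 47.7 CPM in the control library, and 67.6 and 37.1 CPM in the cKO library (log2 difference 0.50, edgeR adjusted p = 0.064). Rictor had 101 and 73.5 CPM, and 96.6 and 68.2 CPM (0.36, edgeR adjusted p = 0.14). Mtor had 36.0 and 26.7 CPM, and 41.0 and 25 CPM (0.41, edgeR adjusted p = 0.27).

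The remaining members did not have this pattern. Lamtor1 had 78.8 CPM under 2% and 86.2 CPM at 2% or more in the control library, and 84.5 and 93.9 CPM in the cKO library (log2 difference -0.25, edgeR adjusted p = 0.33). Akt1s1 had 9.51 and 15 CPM, and 9.66 and 12.9 CPM, from 85 UMIs in all (-0.70, edgeR adjusted p = 0.25). Rheb had 80.1 and 102 CPM in the control library but 138 and 105 CPM in the cKO library, so that its direction was not shared by the libraries (-0.17, edgeR adjusted p = 0.50). Of the 57 Rheb UMIs of cKO cells under 2%, 10 came from 1 cell. Tsc2 also had opposite directions, with 8.15 and 9.31 CPM in the control library and 16.9 and 12.1 CPM in the cKO library (-0.04, edgeR adjusted p = 0.96). Mlst8, with 20 UMIs in all, was under the minimum of 50 UMIs and was not tested.

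**Figure D3:**
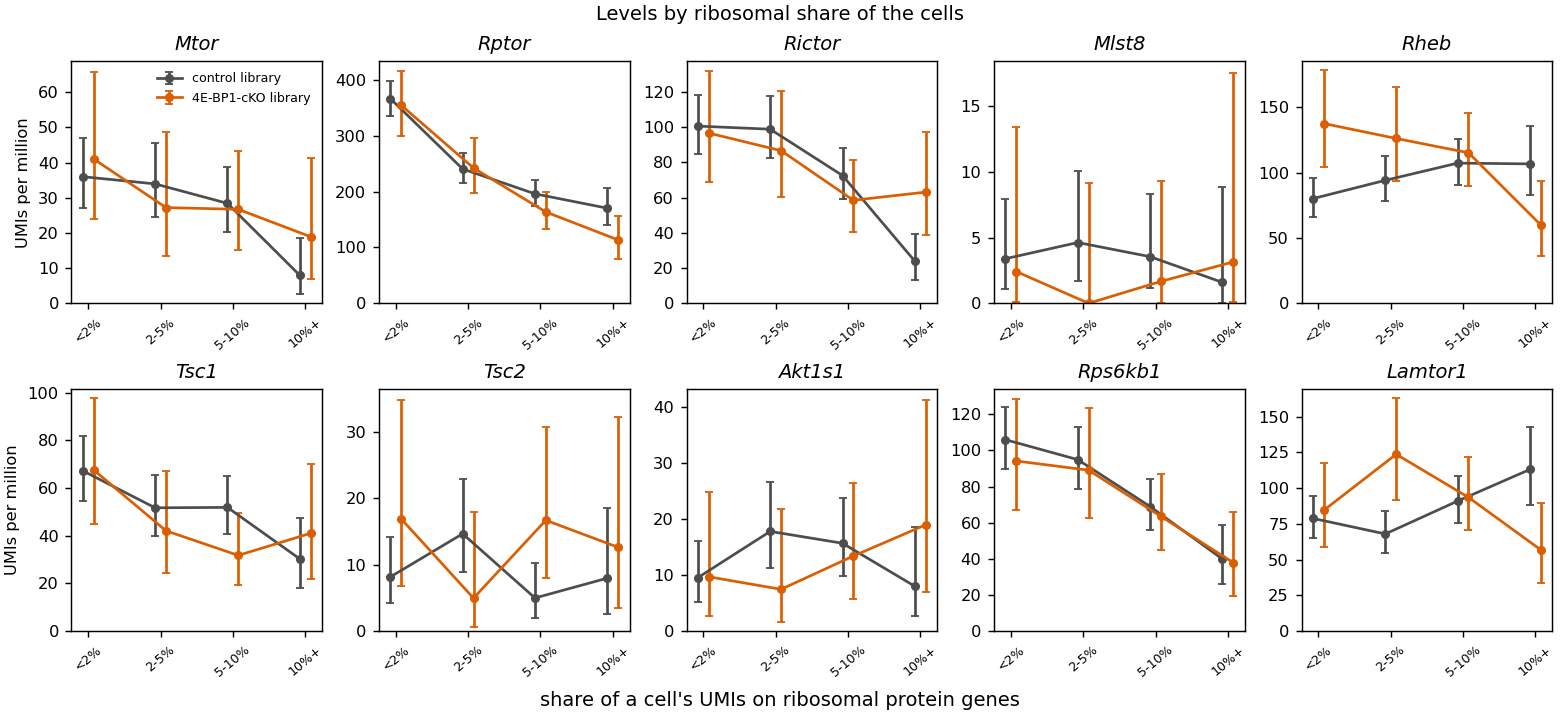
Level of each gene, in CPM of the class, in 4 classes of cells by the share of their UMIs on ribosomal protein genes, for the control (grey) and cKO (orange) libraries. Points are sums over the cells of a class and bars are exact 95% Poisson intervals. Rptor went from 367 to 170 in the control library and from 355 to 114 in the cKO library.

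Other measures moved with the ribosomal share. Cells under 2% were shallower, with a median of 2451 UMIs against 5003.5 in the control library and 1979 against 4494 in the cKO library. The summed level of the 9 microglial markers was 6135 CPM in control cells under 2% and 12800 CPM in the others, and 6139 and 12061 CPM in the cKO library. All 9 of these markers passed the test as lower in cells under 2%. Among them, Tmem119, whose promoter drives the Cre, was lower in the cKO library in both classes. It had 274 CPM in control cells under 2% and 504 CPM in the others, and 106 and 154 CPM in the cKO library. The cause of this difference was not tested. Of the 5 nuclear non-coding RNAs listed for comparison, the 3 with enough counts, Malat1, Neat1 and Kcnq1ot1, were all higher in cells under 2%. The 7 lists of other cell types summed to between 2.72 and 121 CPM in the classes of the control library and between 4.55 and 96.2 CPM in those of the cKO library. Their highest sums were those of astrocytes (121 CPM in control cells under 2% and 96.4 CPM in the others) and oligodendrocytes (16.9 and 96.2 CPM in the cKO library), and Cd163, Ly6c2, Ly6g and Retnlg were at 0 in both libraries. The part of the marker and non-coding RNA levels in the Rptor difference was not tested. Near the limit, 186 control and 47 cKO cells lay between 1.5 and 2.5%.

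The class difference of a gene also went with the length of genome it spans. Gene span was known for 96.8% of the 9368 genes tested. The median log2 difference between cells under 2% and the others was -0.86 for genes under 10 kb, -0.23 for 10 to 30 kb, 0.16 for 30 to 100 kb and 0.41 for genes of 100 kb or more. Of the longest group, 44.7% were higher and 1.13% lower. Mtor, at 109 kb, had a difference of 0.41, at the median of that group, whereas Rptor at 0.78 lay above its upper quartile of 0.58. Rictor, Tsc1, Rps6kb1, Rheb and Tsc2 span between 36.9 and 92.1 kb, and their differences ran from -0.17 to 0.50. Lamtor1 and Akt1s1, at 6.07 and 6.20 kb, lay above the median of the shortest group. The sources used here do not give whether reads in introns were counted, and the part of gene span in these differences was not tested further.

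**Figure D4:**
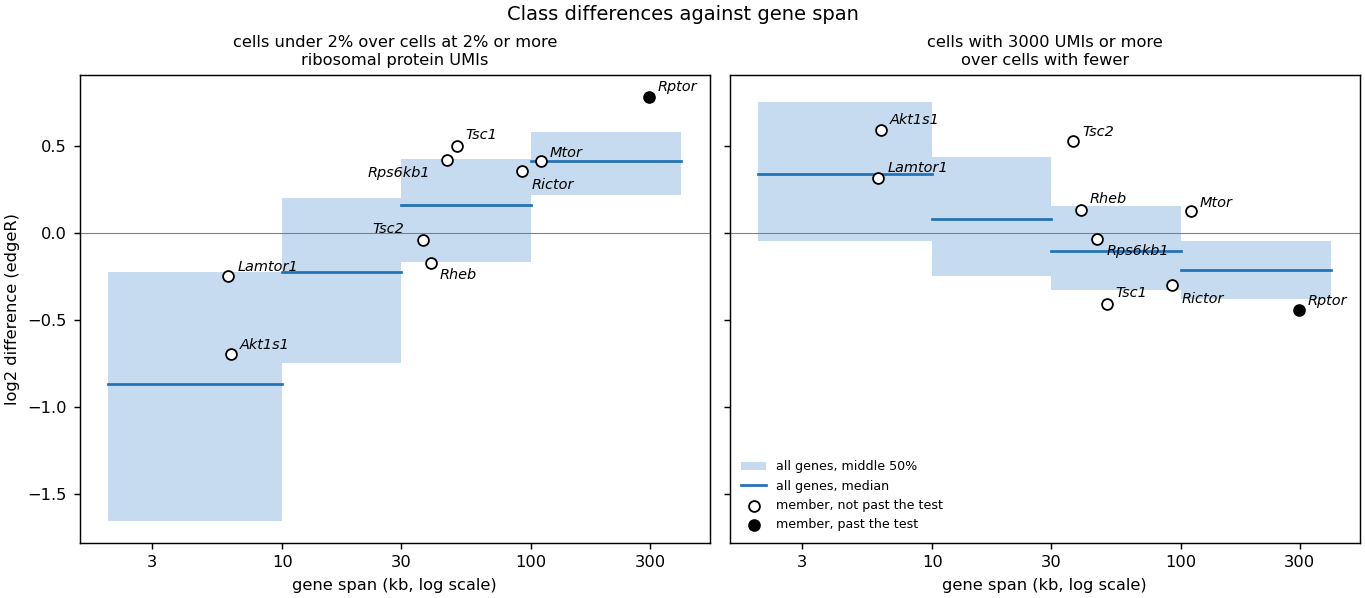
Log2 difference between classes of cells (vertical axis) against gene span in kb (log axis) for the 9 members tested, with ribosomal share on the left and depth on the right. Blue lines and bands are the median and middle 50% of all tested genes in 4 ranges of span. Filled circles passed edgeR's test. On the left the medians rise from -0.86 for the shortest genes to 0.41 for the longest, and Rptor lies above the band of its range.

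Other genes of the pathway passed this test in both directions, where 15.5% of all genes were higher in cells under 2% and 20.3% were lower. In the Rag, Ragulator and GATOR group, which carries the amino acid signal, 7 of 24 tested genes were higher in cells under 2% and 5 were lower. With DESeq2 5 of the 24 passed, against 1109 of all 9368 genes. The lower genes were led by Lamtor2, Lamtor4 and Lamtor5, which encode Ragulator subunits. Lamtor2 had 8.15 CPM under 2% and 44.1 CPM at 2% or more in the control library, and 2.41 and 54.5 CPM in the cKO library (log2 difference -2.89, edgeR adjusted p = 8.58e-12). Lamtor4 and Lamtor5 were lower by log2 differences of -2.24 and -1.91, and the GATOR2 subunit Sec13 by -1.75. The fifth lower gene was Rraga, which encodes RagA. Thus Lamtor1 did not pass the test, and neither did Lamtor3 (log2 difference -0.05, edgeR adjusted p = 0.89). The other 3 Ragulator subunits did, although the difference between the subunits was not itself tested. The higher genes were Depdc5 and Kptn, of GATOR1 and its KICSTOR anchor, Sesn1, Slc38a9, Rragc, Fnip1 and Fnip2. Fnip2, a partner of folliculin, had 443 CPM under 2% and 260 CPM at 2% or more in the control library, and 343 and 236 CPM in the cKO library. Of all tested genes under 10 kb, 50.7% were lower and 3.92% higher, against 1.13% and 44.7% at 100 kb or more. The spans of these pathway genes were not set against that trend, and its part in the split was not tested.

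Of 21 PI3K, AKT and AMPK inputs, 6 were higher in cells under 2% and 2 lower, against 15.5% and 20.3% of all genes. With DESeq2 2 of the 21 passed, against 1109 of all 9368 genes. The insulin receptor gene Insr had 117 CPM under 2% and 78.0 CPM at 2% or more in the control library, and 130.4 and 64.4 CPM in the cKO library (log2 difference 0.63, edgeR adjusted p = 0.0041). The lower genes were Stk11, which encodes the AMPK-activating kinase LKB1, at -0.92, and the AMPK subunit Prkab1 at -0.89.

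Of 16 genes tested in the list of targets and downstream genes, 2 were higher and 4 lower, which is near the shares of all genes. With DESeq2 2 of the 16 passed, against 1109 of all 9368 genes. The higher genes, Tfeb and Mitf, encode related transcription factors that mTORC1 holds in the cytoplasm, and both differed by log2 values of 0.63 and 0.62. The lower genes were Rps6 at -2.82, which is itself a ribosomal protein gene and so was used to form the classes, Eif4ebp1 at -0.97, Maf1, a repressor of RNA polymerase III, at -0.75, and the initiation factor Eif4b at -0.67. Eif4ebp1 had 12.2 CPM under 2% and 23.1 CPM at 2% or more in the control library, and 19.3 and 32.6 CPM in the cKO library (edgeR adjusted p = 0.017). Of the 5 tested genes among the other partners of the complexes, 0 passed this edgeR test in either direction, 0 had an unadjusted p under 0.05, and DESeq2 gave 0 on both counts.

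By the depth of the cells, Rptor again was the only member of 9 past the test, and it was lower in deep cells. In cells with at least 3000 UMIs it had 240 CPM in the control library and 203 CPM in the cKO library, against 325 and 276 CPM in shallower cells. The log2 difference was -0.44 (edgeR adjusted p = 0.010), where 6.71% of all genes were higher in deep cells and 7.09% lower. The median log2 difference was 0.13 over the 9 members and -0.02 over all genes. Rptor had the most UMIs of the members. Akt1s1 and Tsc2 had larger differences from far fewer UMIs, at 0.59 and 0.53, and did not pass (edgeR adjusted p = 0.53 and 0.63). Being the only member past the test thus does not make the depth difference particular to Rptor. Deep cells as a group were also richer in ribosomal protein RNA, with medians of 4.10% against 1.64% in the control library and 5.75% against 1.53% in the cKO library. Over the 4 classes of depth the median share did not rise at each step. From the shallowest to the deepest class it was 4.12, 1.44, 1.38 and 5.56% in the control library. In the cKO library it was 2.37, 1.19, 5.20 and 6.22%. The microglial markers summed to 11612 CPM in deep and 7432 CPM in shallow control cells, and to 11377 and 7918 CPM in the cKO library. When share and depth entered 1 model of 8 sums, the depth difference of Rptor was 0.02 (edgeR adjusted p = 0.99), whereas its difference by ribosomal share was 0.82 (edgeR adjusted p = 3.44e-05). The 8 sums come from the same 2 libraries. Classes of cells within a library are not replicates, so these p-values do not cover the spread between mice.

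The depth difference of Rptor passed under 5 of 11 alternatives. The sums crossed by share and depth are given for comparison. Control cells under 2% had 366 CPM of Rptor when shallow and 367 CPM when deep, and control cells at 2% or more had 216 and 208 CPM. In the cKO library the values were 332 and 386 CPM under 2%, and 172 and 176 CPM at 2% or more. Rptor thus differed with ribosomal share within each depth class, and little with depth within a share class. Between 2500 and 3500 UMIs lay 187 control and 55 cKO cells.

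For the other members, depth classes differed by amounts that did not pass the test. Rheb had 98.2 CPM in deep and 84.4 CPM in shallow control cells, and 113 and 112 CPM in the cKO library (log2 difference 0.13, edgeR adjusted p = 0.72). Lamtor1 had 87.2 and 71.2 CPM, and 96.5 and 73.7 CPM (0.32, edgeR adjusted p = 0.34). Tsc1 was in the other direction in both libraries, with 52.3 and 59.0 CPM, and 38.0 and 68.3 CPM (-0.41, edgeR adjusted p = 0.29). Rps6kb1 had opposite directions, with 79.6 CPM in deep and 98.7 CPM in shallow control cells, but 78.2 and 49.1 CPM in the cKO library (-0.03, edgeR adjusted p = 0.95). Rictor and Mtor differed by -0.30 and 0.13 (edgeR adjusted p = 0.37 and 0.86). Detection, unlike level, followed depth closely. Mtor was detected in 5.56% of control cells under 1000 UMIs and in 19.9% of those with 6000 or more, Rheb in 7.41% and 52.3%, and Rptor in 18.5% and 75%. At 1000 UMIs per cell, the exact mean detection of Rptor was 26.2% in control cells of 1000 to 3000 UMIs and 18.3% in those of 6000 or more. In the cKO library the gap was smaller, at 19.7% and 17.3%.

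**Figure D5:**
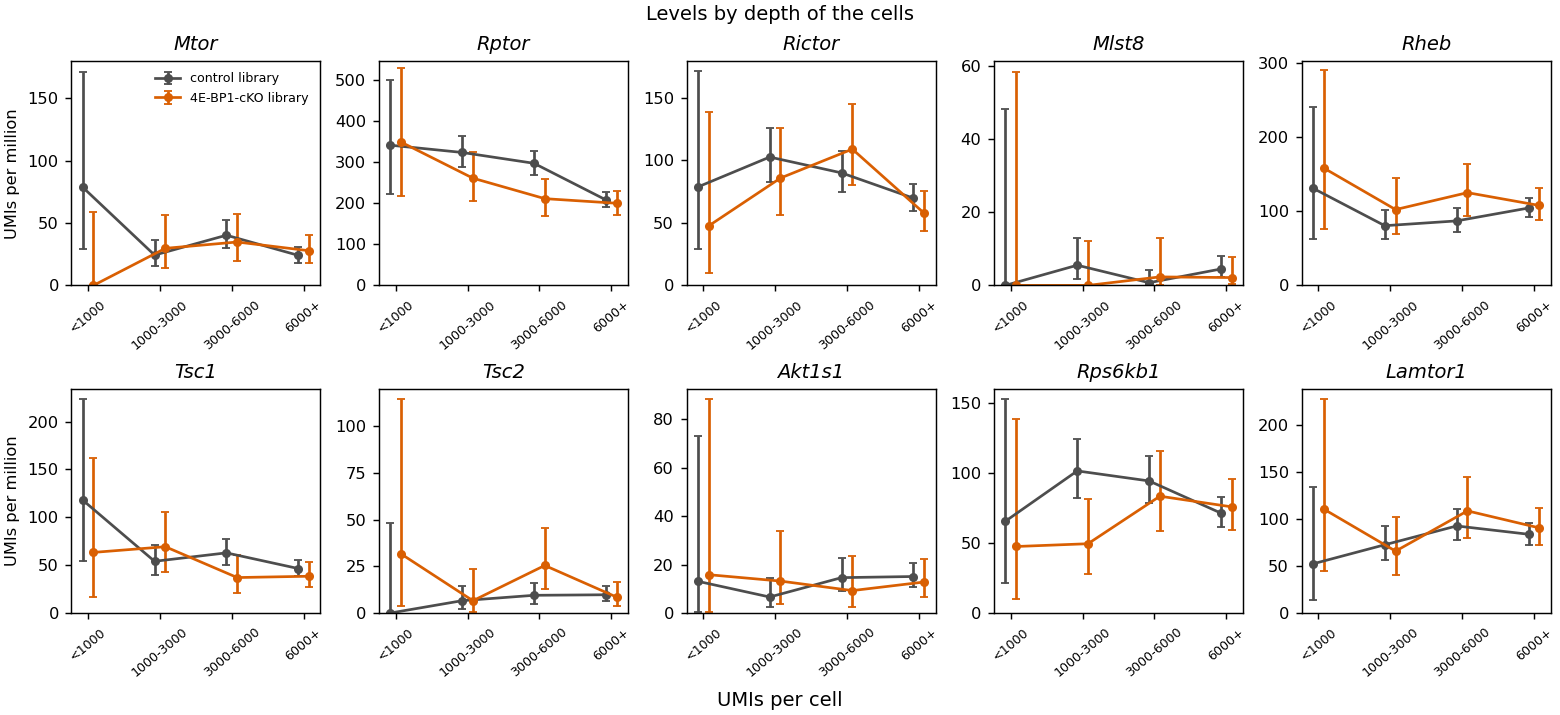
Level of each gene, in CPM of the class, in 4 classes of cells by UMIs per cell, for the control (grey) and cKO (orange) libraries. Points are sums over the cells of a class and bars are exact 95% Poisson intervals, which are wide under 1000 UMIs. Rptor went from 341 to 208 in the control library and from 348 to 200 in the cKO library.

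Of the other pathway genes, the Ragulator subunits Lamtor2, Lamtor4 and Lamtor5 were higher in deep cells and Fnip2 was lower, out of 24 tested, against the 6.71% and 7.09% of all genes given above. With DESeq2, 0 of the 24 passed and 0 had an unadjusted p under 0.05, while 355 of all 9368 genes passed. In 1 model of share and depth 78 of all genes passed by depth, against 1293 by depth alone. Lamtor2 had 38.2 CPM in deep and 13.2 CPM in shallow control cells, and 46.0 and 27.3 CPM in the cKO library. Irs2, an adaptor of the insulin receptor, and Inpp5d, a lipid phosphatase that opposes PI3K, were lower, out of 21, of which DESeq2 passed 0 and gave 1 an unadjusted p under 0.05. Of the 16 genes in the list of targets and downstream genes, Rps6 was higher and Mitf and Tfeb were lower, and DESeq2 passed 2. Of the 5 other complex partners tested, 0 passed the edgeR test, and 0 had an unadjusted p under 0.05 with edgeR or DESeq2.

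Likeness to other genes was measured as Pearson's r of log2(CPM + 1) over the 8 sums of library and ribosomal share class, among 4886 genes with at least 200 UMIs. Points of the same library share a preparation, so r is a description. The named genes are the highest of 4886 over only 8 points, and unrelated genes can also reach a high r in such a search. How many would do so was not worked out. Rptor was most like Gnaq (r = 0.995) and Dock10 (r = 0.991), and 11.5% of the genes had r over 0.9 with it. Rps6kb1 had r = 0.994 with Pag1, and 14.8% of genes were over 0.9. The share over 0.9 was 1.56% for Rictor, which was most like Atf7ip and Gm49797, and 1.76% for Tsc1, which was most like Ppm1l and Tbc1d9. For Rheb, led by Rest (0.992) and Snx3 (0.926), and Lamtor1, led by Cd274 (0.929) and Bach1 (0.894), it was 0.184% and 0.0205%. Many more genes were thus this close to Rptor and Rps6kb1 than to Rheb and Lamtor1.

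Barcodes outside the limits on genes or mitochondrial RNA also carried the members. The 69 control barcodes left out had 62 member UMIs among 110736, and the 29 of the cKO library had 16 among 35595.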

How the data were processed

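Single-cell RNA-Seq was available for 1 control and 1 4E-BP1–cKO library. The authors aligned reads to mm10 with Cell Ranger count (8.0.1 in the header of the deposited tables) and deposited raw UMI counts per gene and called cell, without normalization. The annotation release and the setting for intronic reads are not given in the sources used here.

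Cells with more than 300 genes and under 5% mitochondrial UMIs were kept, doublets included, since the rule names no doublet step. The study used the same limits but also removed doublets with scDblFinder, and it was left with fewer cells of each genotype than here. The members and gene lists were chosen with earlier results of these data known. Counts were summed per library and per class of cells and divided by all UMIs of the sum (CPM). Intervals are exact at 95% (Poisson for counts, conditional Poisson for ratios, Clopper-Pearson for shares), and cover counting error only. No p-value is given between genotypes. Classes of cells were compared with the quasi-likelihood test of edgeR 4.0.16 (R 4.3.3) on 4 sums with a library term and TMM factors, for genes with at least 50 UMIs, with a threshold of 0.05 after Benjamini-Hochberg adjustment over all genes. Cells were thinned to 1000 UMIs for equal depth. Scripts were tested on simulated data. Other tools were Python 3.11.15, numpy 2.4.6, scipy 1.17.1, pandas 2.3.3 and scanpy 1.11.5 (Scrublet, which called 4 control and 11 4E-BP1–cKO doublets).

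Named genes are the 10 members, Eif4ebp1, up to 4 genes per pathway list and comparison with the largest difference past the test, the 2 genes most like each member with at least 200 UMIs, and Snap25, Aqp4 and Cldn5. Values of some genes under this rule are not reported here. Depdc5, Kptn, Sesn1, Slc38a9, Rragc, Fnip1, Fnip2 (by ribosomal share), Lamtor3, Rraga, Tfeb, Mitf (by ribosomal share), Malat1, Neat1, Kcnq1ot1 and Tmem119 were named after their values were seen. So were Irs2 and Tfe3 between the libraries. Alternatives were DESeq2 1.42.0, no TMM factors, other limits on genes (500), mitochondrial UMIs (10%), ribosomal share (3%), depth (2000 UMIs), minimum counts and fold, totals without ribosomal protein and mitochondrial genes, doublet removal, thinning, 1 model of share and depth, and averages within classes.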

Additional observations from a re-analysis of the deposited data

Results flagged for a closer look

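For 4 of the 9 members tested, the log2 difference between classes of cells had opposite signs in the libraries (Rheb, Tsc2, Akt1s1 and Rps6kb1). Mlst8, at 20 UMIs in all, was not tested, and its levels also went in opposite directions. The difference between the libraries was not tested in any of these, since there is 1 library per genotype. By ribosomal share (cells under 2% over the others), Rheb differed by -0.35 among control cells and by 0.39 among 4E-BP1–cKO cells. The corresponding ratios were 0.785 (95% counting interval 0.631 to 0.971) and 1.31 (0.943 to 1.79). Of the 57 Rheb UMIs of 4E-BP1–cKO cells under 2%, 10 came from 1 cell. Tsc2 differed by -0.19 and 0.48, from 43 and 23 UMIs, and both intervals of its ratio held 1 (0.410 to 1.75 and 0.485 to 3.58). By depth (cells with at least 3000 UMIs over the others), Akt1s1 differed by 1.07 and -0.22, from 64 and 21 UMIs, and both intervals held 1 (0.954 to 5.44 and 0.300 to 2.99). Rps6kb1 differed by -0.31 and 0.67, with intervals of its ratio from 0.640 to 1.02 and from 0.960 to 2.79.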

How the results depend on the processing

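The higher level of Rptor in cells under 2% ribosomal protein UMIs passed the test under all 11 alternatives, with log2 differences from 0.59 to 0.89 and adjusted p from 2.67e-09 to 0.014. The number of members past this test was 1, and it became 4 without TMM factors, 2 in 1 model of share and depth and 3 with a limit of 3%. Over all 9368 genes the number was 3351. It became 3622 without TMM factors, 2692 in 1 model of share and depth and 3626 with a limit of 3%. With DESeq2 it was 1109, for the 4887 genes with at least 200 UMIs 2205, and for 4450 genes after thinning 1200. Genes of the pathway lists past this test were 12, 8 and 6 with edgeR (Rag, Ragulator and GATOR, inputs, targets) and 5, 2 and 2 with DESeq2, and by depth 4, 2 and 3 became 0, 0 and 2. The lower level of Rptor in deep cells passed under 5 of 11 alternatives. The count of members past the depth test became 0 with more than 500 genes, with DESeq2, with genes of at least 10 UMIs, in 1 model of share and depth (Rptor then at 0.021), after thinning and with a limit of 2000 UMIs. Over all genes the number was 1293, and it became 355 with DESeq2, 78 in 1 model of share and depth, 491 after thinning and 508 with the limit of 2000 UMIs. Between the libraries, the count of members past 1.5-fold became 1 on averaging within depth classes (Mtor, at 0 UMIs in 1 class) and 1 for genes with at least 20 UMIs (Mlst8). Some of the members' log2 ratios changed sign. Mtor ran from -1.51 to 0.24 and was above 0 within share classes, with more than 500 genes and with TMM factors. Rictor became 0.20 within share classes, Akt1s1 0.082 within depth classes and Lamtor1 -0.23 after thinning. The thinned value of Lamtor1 is from 1 random draw. Its exact mean detection over all draws was 7.29% of control and 7.65% of 4E-BP1–cKO cells. Over all genes the count past 1.5-fold between the libraries was 555. It became 193 with a pseudocount of 10 CPM, 1821 on averaging within depth classes and 281 after thinning. For genes with at least 20 UMIs it was 2216, and at a lower limit on the fold 2048.

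Some differences that had not passed changed sign, without passing. Tsc2 by ribosomal share became 0.068 without TMM factors and 0.27 in 1 model of share and depth. By depth, Rps6kb1 became 0.024 with totals that leave out ribosomal protein and mitochondrial genes, 0.11 with DESeq2, 0.041 and 0.0013 with minimums of 10 and 200 UMIs, 0.31 in 1 model of share and depth and 0.11 with the limit of 2000 UMIs, and Rheb became -0.018 with that limit. Detection of any member was 72.0% and 71.5% after thinning to 2000 UMIs in the control and 4E-BP1–cKO libraries, and reached 46.3% and 43.6% in single other draws to 1000 UMIs. The cause of these changes was not tested. No paired analysis was possible because the genotypes have 1 library each. The tests between classes of cells already carry the library as a term. Depth limits Mlst8, Tsc2 and Akt1s1 most, at 20, 66 and 85 UMIs in all.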
